A study of Homo sapiens with 6 samples.

Results

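Growth factor receptor tyrosine kinases are described here by 10 genes, EGFR, ERBB2, ERBB3, MET, AXL, FGFR1, IGF1R, INSR, PDGFRB and EPHA2, matched by symbol in a table of 58735 genes. All 10 were found, and 9 had enough counts to be tested, among 15768 tested genes. The cells were ES2, an established human ovarian carcinoma line, labelled as high-grade serous carcinoma. The control group (3 libraries, genotype given as WT) received 1 control siRNA, and the siUAP1 group (3 libraries) received UAP1 siRNAs, of which the labels list 2 without saying whether they were pooled. Cells for all 6 libraries were transfected with the same lipid reagent, had their medium replaced after 6 hours and gave RNA at 48 hours. UAP1 makes UDP-N-acetylglucosamine, the sugar donor for glycans such as those that these receptors carry.

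A receptor tyrosine kinase spans the plasma membrane: an outer part binds a growth factor, the receptors pair, and their inner kinase parts phosphorylate each other and start RAS-ERK and PI3K-AKT signalling. EGFR, ERBB2 and ERBB3 form the ERBB family, in which ERBB2 has no known ligand of its own and ERBB3 has a weak kinase. MET binds hepatocyte growth factor, AXL binds GAS6, FGFR1 binds fibroblast growth factors, IGF1R and INSR bind insulin-like growth factors and insulin, PDGFRB binds platelet-derived growth factors and EPHA2 binds ephrin-A proteins on neighbouring cells. These receptors are N-glycosylated in the endoplasmic reticulum and Golgi on their way to the surface.

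The libraries held between 21267240 and 25972582 counts. UAP1 counts were 7341, 9081 and 10848 in the control and 521, 608 and 642 in the siUAP1 libraries, so that the targeted gene matched the labels in all 6. Same-numbered control and siUAP1 libraries deviated together, so siUAP1 was also compared with control within the 3 replicate numbers (the fit with pairs, edgeR). The words rose and fell refer to adjusted p under 0.05 in that fit unless the groups alone are named, fold changes are siUAP1 over control, and a median is that of log2 fold changes. Of the markers of ovarian carcinoma, KRT7 was at 271 to 613 CPM (counts scaled to the library total), PAX8 at 0.550 to 2.51 and WT1 at 1.30 to 2.46 CPM. MUC16 and SOX17 were at 0 in every library, and EPCAM, CDH1 and MSLN did not exceed 0.282 CPM, so 5 of the 9 markers of the labelled type were at or near 0. ESR1 had a mean of 1.13 CPM. Without KRT7 the list summed to only 3.14 to 5.74 CPM in a library. PAX8 shares 685 exon bases with PAX8-AS1 on the opposite strand, at a mean of 1.43 CPM against 1.24 for PAX8, and is uncertain.

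PDGFRB, IGF1R and AXL were the members that rose, and the sequences before their start sites are shown for that reason. They are the 250 bases upstream of the RefSeq start (GRCh38.p14), 5′ to 3′ on the gene's strand. PDGFRB is on the minus strand (chr5:150155846-150156095), IGF1R on the plus strand (chr15:98648289-98648538) and AXL on the plus strand (chr19:41218973-41219222). Capitals mark GGGCGG or its reverse complement CCGCCC, the core of the GC box.

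PDGFRB: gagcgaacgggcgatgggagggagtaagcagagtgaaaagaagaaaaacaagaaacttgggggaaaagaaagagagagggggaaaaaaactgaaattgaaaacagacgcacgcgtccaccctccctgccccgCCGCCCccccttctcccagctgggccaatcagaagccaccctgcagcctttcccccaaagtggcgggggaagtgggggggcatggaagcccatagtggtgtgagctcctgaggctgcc
IGF1R: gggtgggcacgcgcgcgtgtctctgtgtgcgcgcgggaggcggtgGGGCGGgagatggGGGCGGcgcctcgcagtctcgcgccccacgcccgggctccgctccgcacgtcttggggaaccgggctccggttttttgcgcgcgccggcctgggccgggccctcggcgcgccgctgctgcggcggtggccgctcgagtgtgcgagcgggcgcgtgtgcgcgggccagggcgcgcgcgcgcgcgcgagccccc
AXL: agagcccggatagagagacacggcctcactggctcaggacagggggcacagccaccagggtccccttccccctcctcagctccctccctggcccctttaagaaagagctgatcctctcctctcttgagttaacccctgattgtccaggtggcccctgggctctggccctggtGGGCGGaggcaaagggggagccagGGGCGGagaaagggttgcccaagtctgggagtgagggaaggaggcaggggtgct

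GGGCGG on either strand stood in 7 of the 8 members' promoters read from the RefSeq table (EGFR, MET, AXL, IGF1R, INSR, PDGFRB and EPHA2, not ERBB2), against 42.6% of 35116 promoters of the same length. Of the remaining members, FGFR1 was left out without being looked up, and ERBB3 had no match. TATAAA on either strand stood in 0 of the 8, against 10.7% of promoters. CG dinucleotides numbered 48 in the IGF1R, 9 in the PDGFRB and 4 in the AXL sequence. These are matches of letters only.

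AXL and EPHA2 were the most abundant of the members, whereas ERBB2 and ERBB3 had few counts and INSR had none. On the FPKM scale, which divides by gene length so that genes can be compared, AXL was at 109, 143 and 138 in control and 135, 176 and 134 in siUAP1 libraries. EPHA2 was at 139, 87.5 and 88.4 FPKM in control and 144, 82.5 and 91.9 FPKM in siUAP1 libraries. The ranges of AXL and EPHA2 overlapped in each group, so their order was not set.

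MET lay between 53.3 and 67.6 FPKM, EGFR between 25.3 and 29.1, FGFR1 between 8.78 and 10.2 and IGF1R between 3.35 and 4.93 FPKM over all 6 libraries. From EPHA2 down to PDGFRB, no neighbours in this order overlapped within a group, and each step was at least 1.72-fold. Of 16190 protein-coding genes with FPKM above 0, AXL exceeded 98.7%, EPHA2 98.2%, MET 96.3% and EGFR 90.3%.

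PDGFRB was far lower, at 0.525 to 1.30 FPKM in control and 0.724 to 3.14 FPKM in siUAP1 libraries. ERBB3 (0.0316 to 0.155 FPKM) and ERBB2 (0.0120 to 0.0956 FPKM) overlapped each other in both groups. In control libraries AXL, EPHA2 and MET made up 39.1%, 31.5% and 17.1% of the members' summed FPKM.

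**Figure D1:**
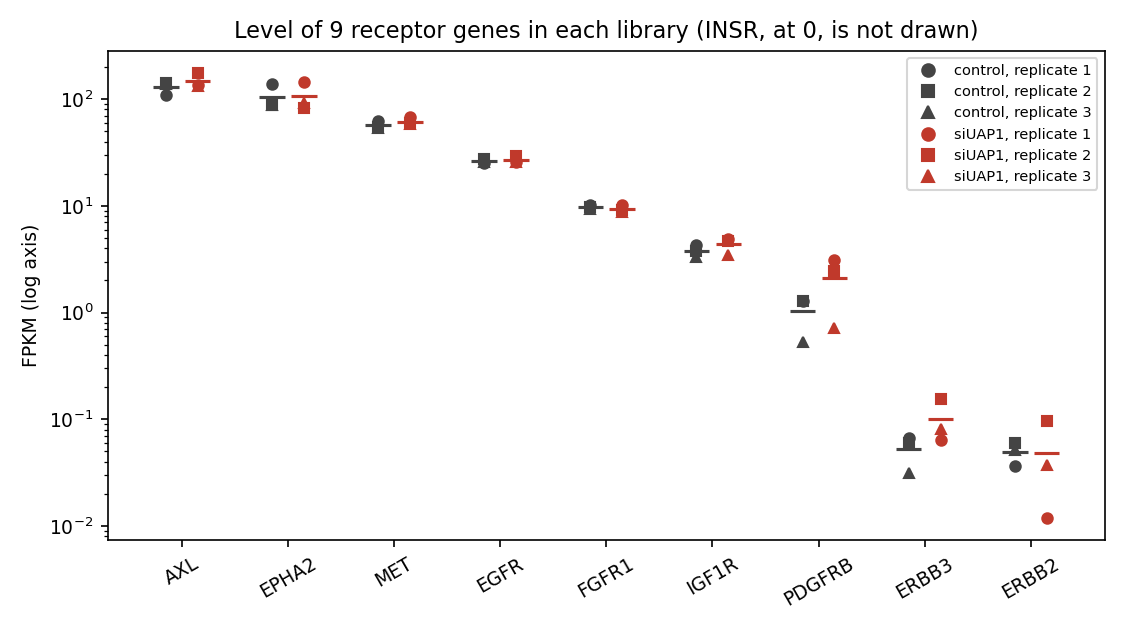
FPKM (log axis) of 9 receptor genes in the 6 libraries, with symbols for the replicate number, colours for the group and a line for each group's mean. AXL and EPHA2 lie highest and overlap, and ERBB3 and ERBB2 lie under 0.2 FPKM; INSR is at 0 and cannot be drawn on this axis.

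INSR (ENSG00000171105, chromosome 19, 7112255 to 7294034 on GRCh38, minus strand) had 0 counts in each of the 6 libraries. Whether these zeros or the few counts of ERBB2 and ERBB3 come from the cells or from how the reads were counted was not tested. If INSR reads were counted like those of other genes, 0 counts allow a level of up to 0.115 to 0.141 CPM (3 counts per library, counting error only). PIK3R2, a PI3K regulatory subunit gene, also had only 0 to 3 counts in each library. Of 19951 protein-coding genes in the table, 3761 also had 0 counts in all libraries. The flanking gene ZNF557 had 90 to 134 counts in each library, and AC119396.1 on the other side had 0 to 4. Of the close relatives INSR and IGF1R, only IGF1R therefore had counts in these libraries.

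The full family has 58 receptor tyrosine kinases, and the members held 70.8% of its summed FPKM. Of the 48 others, 26 were tested and 8 had 0 counts in all libraries. AXL, EPHA2 and MET ranked 1 to 3 of the 58. The angiopoietin receptor relative TIE1 followed at 56.4 FPKM, then EGFR, and then DDR2, a collagen receptor, at 21.8 FPKM, each as the mean over 6 libraries.

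The comparison of siUAP1 with control asks which of these receptor transcripts differed after UAP1 knockdown. With the groups alone, 0 of the 9 tested members passed the threshold in edgeR's quasi-likelihood test, where 0.108% of all tested genes did (0.0317% higher and 0.0761% lower). At an unadjusted p under 0.05 that count was also 0, and DESeq2 called 0. In all 9 the CPM of the groups overlapped, where 12.4% of tested genes had groups that did not overlap (6.74% higher and 5.71% lower). With pairs, 3 rose (PDGFRB, IGF1R and AXL), 0 fell and 6 were not called, where 16.2% of tested genes were called, 9.07% higher and 7.14% lower. The members' median was 0.117, beside -0.00295 over all tested genes. With so few members, 3 of 9 against 16.2% is a description only. DESeq2 with pairs called PDGFRB alone and gave no adjusted p for ERBB2 and ERBB3. That fit called 1311 genes in all, over a set of genes unlike that of edgeR.

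**Figure D2:**
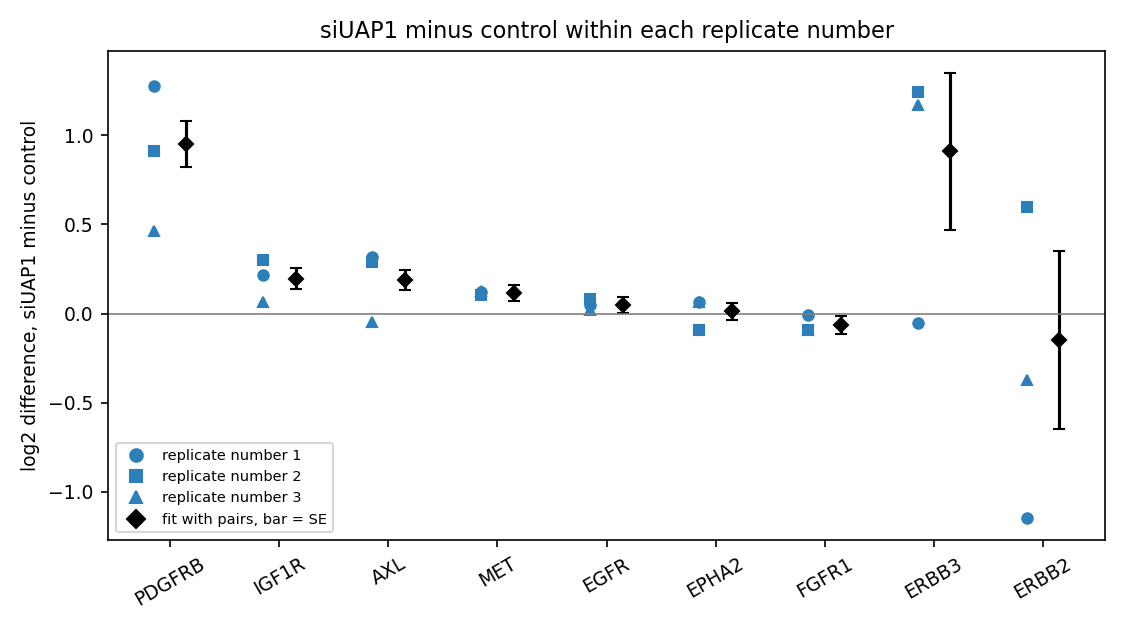
The log2 difference of siUAP1 minus control in log CPM within each replicate number (blue symbols) for 9 receptor genes, beside the fold change of the fit with pairs with its SE (black). PDGFRB lies above 0 in all 3 pairs, MET, IGF1R and EGFR lie above 0 by less, and the sparse ERBB3 and ERBB2 spread widely.

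PDGFRB (ENSG00000113721, chromosome 5, 150113837 to 150155872, minus strand), the receptor for platelet-derived growth factor B and D chains and known from mural cells and fibroblasts, differed most. Its counts were 198, 236 and 92 in control and 541, 458 and 133 in siUAP1 libraries. On the CPM scale these were 9.31, 9.28 and 3.77 in control and 22.6, 17.5 and 5.22 in siUAP1 libraries. The groups overlapped because both libraries of replicate number 3 were low, but within each number the siUAP1 library was higher.

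PDGFRB was at 243%, 189% and 139% of control in pairs 1 to 3. With pairs it rose 1.93-fold (log2 0.95, SE 0.130, edgeR adjusted p = 7.58e-06), and with the groups alone the log2 fold change of 1.02 (SE 0.506) was not called (adjusted p = 0.771). Without siUAP1 replicate 1 the latter was 0.61, and leaving out 1 of the other libraries gave 0.70 to 1.43. Without the filter on low counts the edgeR fit on the groups alone called it (adjusted p = 0.000178). The log2 fold change there was also 1.02, and only its SE was smaller (0.203). In that fit EGFR, MET, AXL, FGFR1 and EPHA2 had nearly equal SEs (0.123 to 0.126), so it hardly reflected each gene's own spread. That call therefore adds no separate support. PDGFRB was called in 7 of 7 fits with pairs, including those that left out each pair in turn, with log2 fold changes of 0.75 to 1.10.

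PDGFRB is itself a marker of fibroblasts and mural cells, so other markers of these cells were read beside it. Of 7 such markers 5 were tested; COL1A1, the collagen I alpha 1 chain, rose (log2 0.85, SE 0.0546, adjusted p = 4.98e-11) as did the nearly absent COL1A2 (0.0786 to 0.282 CPM in control and 0.536 to 0.879 CPM in siUAP1 libraries). The other 3 tested, PDGFRA, RGS5 and ACTA2, were not called. DCN was at 0 in every library and LUM did not exceed 0.167 CPM. The list's summed level was 814 to 1514 CPM in control and 1398 to 2409 CPM in siUAP1 libraries, and without COL1A1 41.7 to 63.4 and 36.7 to 59.4 CPM. Their part in the PDGFRB result was not tested. In bulk RNA, more cells of a type and more RNA per cell cannot be told apart. Leukocyte markers did not exceed 0.460 CPM in sum in any library, and CD3E was at 0.

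CSF1R, the receptor for macrophage colony-stimulating factor, starts 464 bases beyond the 3′ end of PDGFRB on the same strand of chromosome 5. It had 6, 5 and 7 counts in control and 23, 21 and 24 in siUAP1 libraries, and the groups did not overlap. It rose with pairs (log2 1.81, SE 0.471, adjusted p = 0.00881) and was not called with the groups alone (adjusted p = 0.236).

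IGF1R (ENSG00000140443, chromosome 15, 98648539 to 98964530, plus strand), the receptor for insulin-like growth factors, was slightly higher in siUAP1 libraries. It was at 59.9, 53.4 and 46.9 CPM in control and 69.6, 65.8 and 49.2 CPM in siUAP1 libraries. All 3 pairs were higher, by 0.21, 0.30 and 0.07 on the log2 scale, and pair 3 differed least. The rise was 1.15-fold (log2 0.20, SE 0.0590, adjusted p = 0.0226 with pairs, 0.917 with the groups alone). Leaving out pair 2 ended the call (adjusted p = 0.249), and DESeq2 with pairs did not make it (adjusted p = 0.160).

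AXL (ENSG00000167601, chromosome 19, 41219203 to 41261766, plus strand), a TAM family receptor, was at 567, 746 and 717 CPM in control and 707, 913 and 695 CPM in siUAP1 libraries. The siUAP1 library was higher in pairs 1 and 2 (log2 0.32 and 0.29) and slightly lower in pair 3 (log2 -0.04). The rise with pairs was 1.14-fold (log2 0.19, SE 0.0566, adjusted p = 0.0228), and with the groups alone the adjusted p was 0.923. In edgeR the call was lost when pair 1 (adjusted p = 0.0650) or pair 2 (adjusted p = 0.168) was left out. DESeq2 with pairs did not make it (adjusted p = 0.402). Without pair 3 the log2 fold change was 0.30, over 1.5 times as large as with all pairs.

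**Figure D3:**
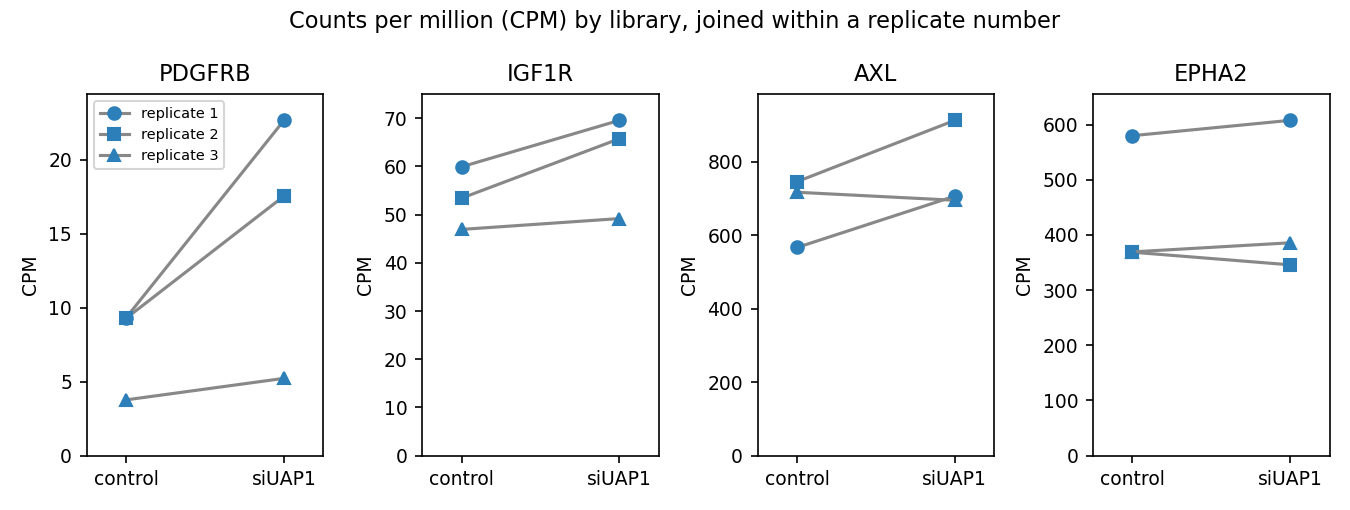
CPM of PDGFRB, IGF1R, AXL and EPHA2 in control and siUAP1 libraries, each line joining the libraries with the same replicate number, with axes from 0. The lines of PDGFRB and IGF1R rise in all 3 pairs and those of AXL in 2, while the lines of EPHA2 stay near level and replicate number 1 lies above the others.

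MET, the hepatocyte growth factor receptor, was at 443, 391 and 377 CPM in control and 482, 421 and 412 CPM in siUAP1 libraries. Each pair was higher by a similar amount (log2 0.12, 0.10 and 0.13), but the difference was not called (log2 0.12, SE 0.0452, adjusted p = 0.0809 with pairs). The 95% interval of its log2 fold change with pairs, not adjusted for the number of genes, was 0.02 to 0.21.

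EGFR, the founding ERBB receptor, was at 319, 347 and 323 CPM in control and 330, 367 and 327 CPM in siUAP1 libraries, and was not called (log2 0.05, SE 0.0455, adjusted p = 0.532, interval -0.04 to 0.14). EPHA2, an ephrin-A receptor, was at 580, 369 and 369 CPM in control and 608, 346 and 386 CPM in siUAP1 libraries. It was not called (log2 0.01, SE 0.0477, adjusted p = 0.900, interval -0.09 to 0.11). FGFR1 was at 142, 136 and 131 CPM in control and 142, 128 and 123 CPM in siUAP1 libraries and was lower in all 3 pairs without being called (log2 -0.06, SE 0.0478, adjusted p = 0.427, interval -0.16 to 0.03). The intervals of EGFR, EPHA2 and FGFR1 thus held 0 and only small differences.

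Among the 9 tested members, PDGFRB, IGF1R, MET and EGFR were higher in siUAP1 in all 3 pairs, and FGFR1 was lower in all 3. Over all tested genes 23.4% were higher and 23.6% lower in all 3 pairs.

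ERBB3, which binds neuregulins, had 13, 14 and 7 counts in control and 14, 37 and 19 in siUAP1 libraries. It was more than 2-fold higher in pairs 2 and 3 and not higher in pair 1, and was not called (log2 0.91, SE 0.440, adjusted p = 0.176 with pairs). ERBB2 had 8, 16 and 13 counts in control and 3, 26 and 10 in siUAP1 libraries and was not called (log2 -0.15, SE 0.498, adjusted p = 0.892). The interval of ERBB2 was -1.17 to 0.88, so differences within it were not detectable at this depth. ERBB2 also shares 571 exon bases with MIEN1 on the opposite strand, which was at 14.8 CPM against 0.509 for ERBB2, so the few ERBB2 counts are uncertain. The exons of EGFR, AXL and FGFR1 overlap those of less abundant genes by 67 to 186 bases each.

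For the 7 members above 1 FPKM, replicate numbers differed by more than the groups did. The mean over both groups was 1.66 times as high in the highest as in the lowest replicate number for EPHA2, 3.56 times for PDGFRB, 1.35 times for IGF1R and 1.30 times for AXL. For PDGFRB this exceeded the 2.03-fold ratio of the group means. Fits with the groups alone count this spread as error, and fits with pairs remove it.

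Genes with the most similar profile over the 6 libraries were found for each member by the root mean square difference of centred log2 CPM over the 10340 (10341 for ERBB2 and ERBB3) other tested protein-coding genes with a mean of 5 CPM or more. PDGFRB was nearest to NID2, a basement membrane nidogen (0.223), and SERPINA5, a secreted serpin (0.224), where the median gene was 0.922 away. IGF1R was nearest to KSR1 (0.0397) and ATRX (0.0409), AXL to KREMEN1 (0.0573) and TTC39B (0.0586), and EPHA2 to the nuclear receptor gene PPARG (0.0367). MET was nearest to PLPP2 (0.0174), EGFR to ATP13A3 (0.0219), FGFR1 to MPV17L2 (0.0231), ERBB3 to CGN (0.274) and ERBB2 to PMM2 (0.346). These are descriptions over 6 libraries.

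Ligands of the members moved in both directions. Of 33 ligand genes 18 were tested, and with pairs 3 rose and 5 fell, against 9.07% and 7.14% of all tested genes. The median was 0.0661 (0 rose and 0 fell with the groups alone, where 4 had an unadjusted p under 0.05). This list and those below were chosen with earlier results of these data known. For the counts at an unadjusted p, the share of all tested genes is not given here. The 8 calls became 5, 6 and 4 without pairs 1, 2 and 3, and 4 in DESeq2 with pairs. HBEGF, an EGFR ligand, was at 140, 83.4 and 106 CPM in control and 81.0, 56.2 and 72.2 CPM in siUAP1 libraries. The groups did not overlap, and HBEGF fell (log2 -0.64, SE 0.0551, adjusted p = 5.44e-09). EREG, another EGFR ligand, was at 169, 63.0 and 31.7 CPM in control and 339, 91.4 and 48.1 CPM in siUAP1 libraries. It rose within every pair although the groups overlapped (log2 0.74, SE 0.0665, adjusted p = 1.03e-08).

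Fibroblast growth factors that bind FGFR1 fell: FGF5 from 179 ± 31.4 to 122 ± 28.7 CPM (SD, n = 3; log2 -0.56, edgeR adjusted p = 3.17e-08) and FGF1 from 10.1 ± 2.41 to 5.40 ± 1.00 CPM (log2 -0.88, edgeR adjusted p = 0.000172), while FGF2 was not called. For PDGFRB, the ligand gene PDGFB rose from 1.22, 2.91 and 1.19 CPM in control to 4.31, 3.90 and 1.96 CPM in siUAP1 libraries (log2 0.94, SE 0.259, adjusted p = 0.0130). The AXL ligand GAS6 was not called (log2 -0.05, SE 0.0561, adjusted p = 0.611). The MET ligand HGF had 1 to 34 counts in a library and was not called.

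**Figure D4:**
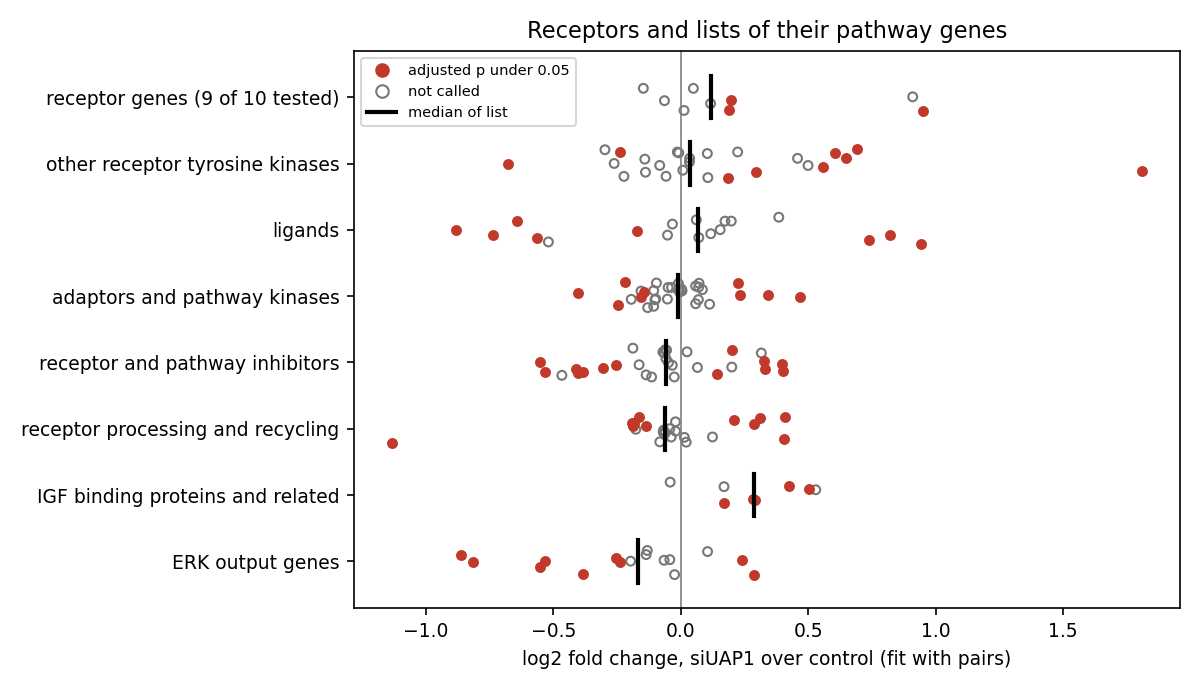
The log2 fold change with pairs (horizontal) for each tested receptor gene and each tested gene of 7 lists of pathway genes, with called genes filled and a bar at each list's median. The receptors' median of 0.117 and that of IGF binding proteins lie above 0, the median of ERK output genes lies below it, and called genes stand on both sides in most lists.

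Other receptor tyrosine kinases also went both ways. Of 26 tested, 7 rose and 2 fell with pairs, against 9.07% and 7.14% of all tested genes. The median was 0.0347 (0 rose and 0 fell with the groups alone, where 5 had an unadjusted p under 0.05). These 9 calls numbered 6, 5 and 3 when pairs 1, 2 and 3 were left out, and 4 in DESeq2 with pairs. Collagen receptor genes were among those that rose: DDR1 from 43.3, 30.8 and 32.6 CPM to 66.6, 47.3 and 53.4 CPM (log2 0.65, SE 0.0612, adjusted p = 2.18e-08) and DDR2 (log2 0.19, SE 0.0481, adjusted p = 0.00850). The ephrin-B receptor family genes EPHB6 (log2 0.61) and EPHB2 (log2 0.29) also rose. The groups did not overlap for DDR1, EPHB6 or EPHB2. They overlapped for DDR2.

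Of 33 tested adaptors and pathway kinases, 4 rose and 5 fell with pairs, against 9.07% and 7.14% of all tested genes. The median was -0.00902 (0 rose and 0 fell with the groups alone, where 3 had an unadjusted p under 0.05). Leaving out pair 1, 2 or 3 lowered the 9 calls to 7, 5 and 5, and DESeq2 with pairs made 4. The insulin receptor substrate gene IRS2 (log2 0.47) rose, and the RAF kinase gene BRAF (log2 -0.40) and the ERK kinase gene MAP2K1 (log2 -0.22) fell. BRAF shares 1239 exon bases with NDUFB2 on the opposite strand at a similar level and is uncertain.

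Of 30 tested inhibitors of the receptors or their pathways, 6 rose and 7 fell with pairs, against 9.07% and 7.14% of all tested genes. The median was -0.0594 (0 rose and 0 fell with the groups alone, where 10 had an unadjusted p under 0.05). The ERK pathway antagonist SPRY2 fell from 218, 171 and 156 CPM to 145, 124 and 107 CPM (log2 -0.53, SE 0.0480, adjusted p = 1.08e-08). The ERK phosphatase gene DUSP6 (log2 -0.55) and the RAS GTPase-activating gene RASA1 (log2 -0.41) fell as well, and RASA1 shares 771 exon bases with CCNH on the opposite strand and is uncertain. GRB10, an adaptor that restrains IGF1R and INSR, rose (log2 0.40, SE 0.0535, adjusted p = 6.63e-06).

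In receptor cleavage, traffic and chaperoning, 5 of 25 tested genes rose and 6 fell with pairs, against 9.07% and 7.14% of all tested genes. The median was -0.0610 (0 rose and 0 fell with the groups alone, where 6 had an unadjusted p under 0.05). In place of these 11 calls there were 9, 9 and 5 without pairs 1, 2 and 3, and 7 in DESeq2 with pairs. FURIN, the convertase that cleaves the MET and IGF1R precursors, was at 97.9, 88.9 and 95.2 CPM in control and 130, 123 and 121 CPM in siUAP1 libraries. The groups did not overlap, and FURIN rose 1.33-fold (log2 0.41, SE 0.0497, adjusted p = 1.40e-06). The sheddase gene ADAM10 (log2 0.29) and the late endosome GTPase gene RAB7A (log2 0.40) rose, and RAB4A, a GTPase of rapid receptor recycling, fell (log2 -1.13, SE 0.0868, adjusted p = 8.15e-10).

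Of 8 tested IGF binding proteins and related genes, 5 rose and 0 fell with pairs, against 9.07% and 7.14% of all tested genes. The median was 0.289 (0 rose and 0 fell with the groups alone, where 1 had an unadjusted p under 0.05). DESeq2 with pairs called 3. IGFBP7 (log2 0.50), the IGFBP protease gene PAPPA (0.43), IGF2R, which clears IGF2 from the surface (0.29), IGFBP6 (0.28) and STC2, an inhibitor of PAPPA (0.17), rose. IGFBP7 shares 270 exon bases with the more abundant POLR2B on the opposite strand and is uncertain. IGF2 itself, like INSR, had 0 counts in every library.

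Among transcripts widely used as readouts of ERK activity, more fell than rose. Of 16 tested, 2 rose, 7 were not called and 7 fell with pairs, where 9.07% of all tested genes rose and 7.14% fell. The median was -0.166. With the groups alone 0 rose and 1 fell, ETV5 (edgeR adjusted p = 0.0453), a call lost when any 1 library was left out. The list was chosen with earlier results of these data known. The transcription factor genes ETV5 (log2 -0.86) and EGR1 (log2 -0.82) fell, and CCND1 (log2 0.24) and IER3 (log2 0.29) rose. SPRY2, SPRY4, DUSP6, SPRED1, SPRED2 and DUSP4 stand on this list and on that of the inhibitors. EPHA4, an ephrin receptor that also stands among the other receptor tyrosine kinases, fell (log2 -0.24, SE 0.0663, adjusted p = 0.0144).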

How the data were processed

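Poly(A) RNA, per the labels, was sequenced from 6 ES2 libraries, grouped by title. The submitters' processing notes name GRCh38.p12 and DESeq2. How reads were aligned and counted, and whether strand was used, is not given in the sources used here. The authors deposited raw counts per gene (21267240 to 25972582 in a library) and FPKM, and GENCODE release 29 gives identical coordinates for all 10 members. No label says that replicates were separate cultures: p-values then measure only the spread between these libraries, which may be technical. Replicates of a group differed beyond counting noise (chi-square divided by its degrees of freedom, 23.9 to 41.3).

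Deposited counts were tested with edgeR 4.0.16 (R 4.3.3): filterByExpr with a minimum count of 10, TMM scaling, a quasi-likelihood model of group alone, and Benjamini-Hochberg adjustment over 15768 genes at 0.05. The alternative adds the replicate number as a block. Both fits were also run on simulated counts. Those were drawn from the fit with the block itself, so they cannot test the choice of pairing. Same-numbered libraries deviated together (correlations 0.552, 0.454 and 0.584, above the limit of 0.1, and -0.434 to -0.0893 for other numbers). This was taken as pairing, from the titles' numbers and the data. Deviations were taken from each group's mean, which pushes the other correlations below 0 once same-numbered ones are positive. The negative values are therefore no separate sign of pairing. The library names also share a code within each replicate number, whose meaning the labels do not give. CPM use TMM-adjusted totals of tested genes, and pair differences use log CPM with a prior count of 2. FPKM served for levels and for limma 3.58.1 with a pseudocount of 1 or 0.1, whose log2 fold changes understate changes of low genes. Further alternatives were DESeq2 1.42.0, other scalings and filters, and leaving out libraries; 2 scalings with the block were added after seeing the data.

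Named genes are the members, UAP1, in each list up to 4 called genes by smallest p in either fit (with fewer than 2, the next 2), each marker list's leading gene, and 2 genes most alike in pattern to each member, of which some are printed; a gene that this rule names is not reported here. Chosen after their values were seen were FGF2, PDGFB, GAS6, HGF, IGF2, NRG1, PIK3R2, TIE1, STC2, EPHA4, IER3, CCND1, the other markers and the flanking or overlapping genes. The members and lists were chosen with earlier results of these data known.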

Additional observations from a re-analysis of the deposited data

How the results depend on the processing

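The direction and call of UAP1 held in all 21 alternatives. The count of called genes was 17 with the groups alone and 2556 with the replicate block; it was 273 with no filter beyond 1 count, 165 in DESeq2, 1311 in DESeq2 with the replicate block, 2 and 3 in limma on log2(FPKM + 1) and log2(FPKM + 0.1), and 1 in limma on log2(FPKM + 1) without a filter. Leaving out 1 library gave 1 to 3, and leaving out a pair within the replicate block 1195 to 2204 (2204, 1987 and 1195 without pairs 1, 2 and 3). With the replicate block, RLE factors gave 2539 and library totals 2587. The receptor genes called were 0 with the groups alone, 3 with the replicate block and 1 to 3 without a pair, 3 with RLE factors or library totals in that fit, 1 in DESeq2 with the replicate block and 1 (PDGFRB) without the filter. Genes called over the 7 pathway lists were 1 with the groups alone, 59 with the replicate block (59 with RLE factors, 60 with library totals, 50, 46 and 35 without pairs 1, 2 and 3, 37 in DESeq2), 10 without the filter, 7 in DESeq2 and 0 in each limma fit or without any 1 library. Signs turned only for uncalled values: EGFR to -0.0067 without siUAP1 replicate 2 (up to 0.0872 without another library); ERBB2 between -0.97 and 0.43 when 1 library was left out, and to 0.19 in the block without pair 1; EPHA2 between -0.26 and 0.27 when 1 library was left out, and to -0.0143 and -0.0128 in the block without pairs 1 and 3. The causes were not tested. Fewer counts limit ERBB2 and ERBB3, and 0 counts INSR. Filters at a mean of 5 CPM or 1 FPKM left out ERBB2 and ERBB3.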

Other observations

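EREG and NRG1, ligands of ERBB receptors, differed widely between replicate numbers in both groups. EREG was at 169, 63.0 and 31.7 CPM in control replicates 1 to 3 and at 339, 91.4 and 48.1 CPM in the siUAP1 libraries, the highest in both groups being replicate number 1. NRG1, which binds ERBB3, was at 135, 89.3 and 44.2 CPM in control and at 130, 69.7 and 41.5 CPM in siUAP1 libraries, and again number 1 was highest and number 3 lowest in both groups. With pairs NRG1 fell slightly (log2 -0.17, SE 0.0583, edgeR adjusted p = 0.0471). EPHA2 was also highest in number 1 in both groups.

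TIE1 and the endothelial cadherin gene CDH5, both known from endothelial cells, were well expressed in all libraries, CDH5 at 130 to 171 CPM, and neither was called with pairs (CDH5 log2 0.03, SE 0.0468, edgeR adjusted p = 0.738). The other endothelial markers PECAM1, VWF, KDR and TEK summed to 3.02 to 6.78 CPM in a library.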
